A study of Homo sapiens with 4 samples.

Results

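ES2 and H4, established human cell lines, were compared without drug, on the arrays of cells that had received only the solvent DMSO for 48 h. ES2 came from an ovarian tumour and is commonly described as ovarian clear cell carcinoma, whereas H4 is usually catalogued as a brain neuroglioma line. The labels nevertheless assign H4 the ovarian origin of ES2, an adenocarcinoma taken from ascites, and call both epithelial. The comparison is ES2 with DMSO for 48 h against H4 with DMSO for 48 h, 1 array each, and these are 2 of the 4 arrays in the series. On the other arrays the same lines had received the GLI inhibitor GANT61 at 20 µM for 48 h, and these arrays were used as a repeat of the line difference in treated cells. Total RNA was measured on Illumina HumanHT-12 V4 BeadChips, which carry probes for 30562 genes named here, and 11819 genes detected on both arrays of at least 1 line were compared.

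The deposited intensities had been quantile-normalized within each line only, so both lines were first brought to a common quantile scale. The sorted values of the DMSO arrays differed by a median of 35.04% before that step, against 0.00457% between the ES2 arrays and 0.0103% between the H4 arrays. Levels below are log2 normalized signals on the DMSO arrays and ratios are ES2 over H4. A probe was counted as detected on an array at a detection p-value under 0.01, and the detection columns name the line but not the treatment, so each gene was detected on 0, 1 or 2 arrays of a line. The ES2 arrays detected 32.6% and 33.4% of the probes, and the H4 arrays 30.6% and 27.3%. Where a gene was detected on both arrays of only 1 line, its fold is a bound, written "at least", taken against the dimmer line's own signal or the lowest signal detected in that line, log2 6.11 in ES2 and 6.19 in H4, whichever was higher. With 1 array per line and treatment there is no replicate and no test for the DMSO arrays, and the number of arrays limits the precision. The line difference was therefore also fitted with limma over all 4 arrays with treatment as a block, which leaves 1 residual degree of freedom, and the adjusted p-values below come from that fit. Nothing in the labels says that the arrays came from separate cultures, and line cannot be told apart from any array or culture batch. The residual behind these p-values is the change in a gene's line difference between the DMSO and the GANT61 arrays. It mixes array error with any unequal response of the lines to GANT61. A gene not called can thus have a wide gap on the DMSO arrays.

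A cell line keeps part of the program of the tissue it came from. Epithelial cells are held together by E-cadherin and keratins, mesenchymal cells carry vimentin and secrete fibrillar collagens, and glial cells express lineage factors such as OLIG2 and SOX2 and the filament protein GFAP. Growth in culture is also shaped by ERK signalling, by YAP with its TEAD partners, by the RB pathway and by a basal interferon tone. A lower signal of a gene can come from fewer cells that express it or from less RNA per cell, which these bulk measurements cannot tell apart.

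Across the 11819 compared genes, 1067 were at least 2-fold higher in ES2 (9.03%) and 1055 were at least 2-fold lower (8.93%), or 18.0% in either direction. The median log2 ratio was 0.06. Of these genes, 8816 were detected on both arrays of both lines, 2316 on both arrays of ES2 only and 687 on both arrays of H4 only. At 4-fold, 243 genes were higher in ES2 and 269 lower. In the 4-array limma fit, 2489 genes were higher in ES2 (21.1%) and 1980 lower (16.8%) at an adjusted p under 0.05. The balance between the directions depends on the common scale. When each array was scaled to its median in place of quantile normalization, 3490 genes were at least 2-fold higher and 435 lower, so 88.9% of the calls were higher against 50.3%, and the median ratio of all genes shifted by 0.60. With the authors' values as deposited, 1107 were higher and 736 lower, or 60.1% higher.

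**Figure D1:**
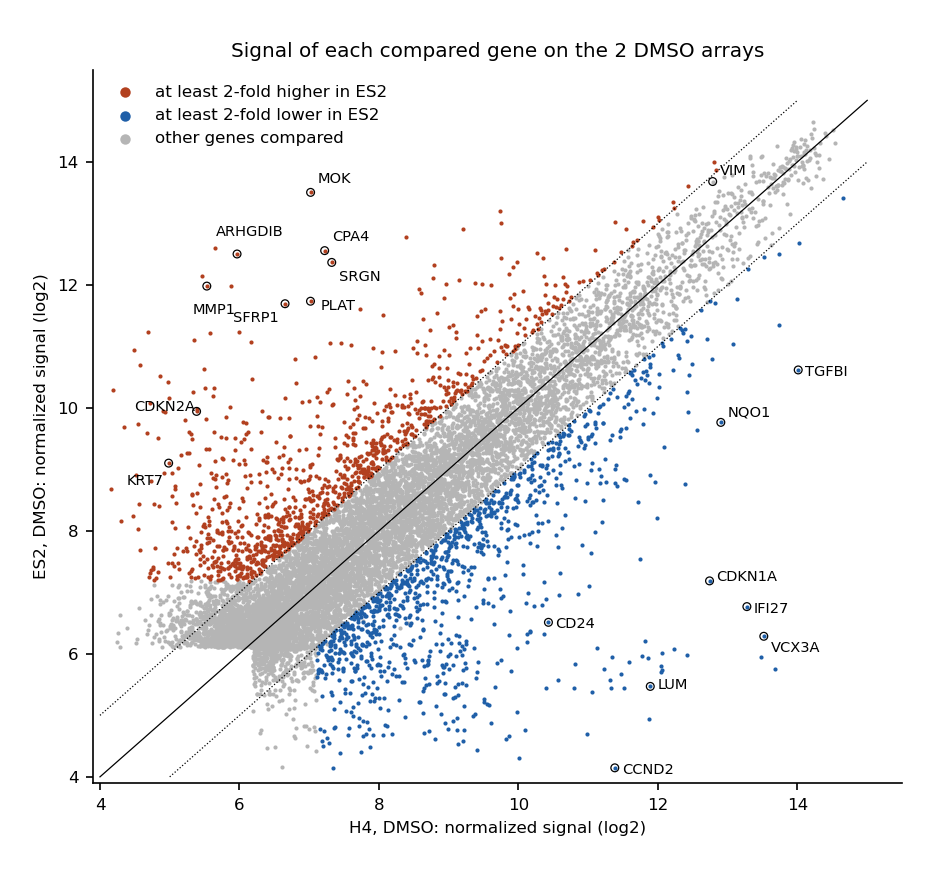
Normalized log2 signal of each compared gene on the ES2 DMSO array (vertical axis) against the H4 DMSO array (horizontal axis), 1 point per gene, with equality as a solid line and 2-fold differences as dotted lines. The 1067 genes at least 2-fold higher in ES2 lie above and the 1055 lower below, and grey points outside the dotted lines are genes whose bound stays under 2-fold.

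The genes far above the diagonal on the ES2 side had varied roles. MOK, a MAP kinase-related serine/threonine kinase that the file lists under its former symbol RAGE, had a signal of 13.50 in ES2 and 7.02 in H4 and was 89.5-fold higher in ES2. RAGE is also a synonym of AGER, and the probe was read as MOK because the file lists AGER separately, under its own symbol. Carboxypeptidase A4 (CPA4) was 40.4-fold higher (12.56 in ES2 and 7.22 in H4), and the tissue plasminogen activator PLAT was 26.3-fold higher (11.73 in ES2 and 7.02 in H4). ARHGDIB, a GDP-dissociation inhibitor of small GTPases abundant in haematopoietic cells, had a signal of 12.50 in ES2 and 5.97 in H4 and was at least 79.6-fold higher. CYBA, the p22phox subunit of NADPH oxidases, was at least 32.99-fold higher, and HCLS1, a cortactin relative of haematopoietic cells, was at least 27.01-fold higher. Both were detected on no H4 array. TNFRSF6B, a soluble decoy receptor for FAS ligand, was at least 30.3-fold higher (11.11 in ES2 and 5.35 in H4), the homeodomain-only protein HOPX at least 22.6-fold higher, and the actin crosslinker filamin C (FLNC) at least 20.1-fold higher. The pyrimidine enzyme CTP synthase 2 (CTPS2), with 10.82 in ES2 and 7.09 in H4, was 13.3-fold higher, and the focal adhesion protein leupaxin (LPXN), with 11.60 in ES2 and 7.73 in H4, was 14.6-fold higher. In the 4-array limma fit each of these 11 genes was higher in ES2, with adjusted p-values between 1.64e-08 for MOK and 0.000124 for LPXN.

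On the opposite side stood the germ-cell VCX family and single genes of other roles. VCX3A, a germ-cell protein gene on the X chromosome, had a signal of 6.29 in ES2 and 13.52 in H4 and was 150.3-fold lower in ES2. Its neighbours in the family, VCX (at least 189-fold lower), VCX3B (at least 165-fold lower) and VCX2 (at least 69.5-fold lower), were detected on no ES2 array. The elongation factor EEF1A2, normally a form of neurons and muscle, had 4.95 in ES2 and 11.87 in H4 and was at least 54.1-fold lower. EPDR1, an ependymin-related glycoprotein, was at least 61.5-fold lower (5.74 in ES2 and 12.05 in H4), and the membrane protein gene SEL1L3 was 16.5-fold lower (6.33 in ES2 and 10.37 in H4). All of these had an adjusted p of 1.20e-06 or less in the limma fit.

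Markers of the labelled tissue were thin in both lines. Of 28 Müllerian and epithelial markers, 19 were detected on no array of either line, among them E-cadherin (CDH1), KRT19 and the ovarian lineage factors PAX8 and WT1. CDH1 had an undetected signal of 5.35 in ES2 and 4.78 in H4, and PAX8 had 5.402 in ES2 and 5.35 in H4. ES2 held 5 markers on both arrays, ARID1A, KRT7, KRT8, KRT18 and LCN2. H4 also held 5, ARID1A, KRT18, LCN2, MUC1 and SLPI. The epithelial morphology that the labels give was accompanied by few epithelial markers in either line.

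What separated the lines within this list was mainly the simple keratins. KRT7, a keratin of ductal and Müllerian epithelia, had a signal of 9.101 in ES2 and 4.98 in H4 and was at least 7.53-fold higher in ES2 (limma difference 4.09 ± 0.25 SE, adjusted p = 2.83e-07). Its filament partners KRT8 and KRT18 had 7.900 against 6.26 and 8.001 against 6.88, ES2 against H4. KRT8 was at least 3.11-fold higher (adjusted p = 0.000363), with H4 detecting it on 1 array, while KRT18 was 2.18-fold higher on the DMSO arrays but not called in the fit (adjusted p = 0.146). The hair keratin KRT81 was 11.05-fold higher (13.20 in ES2 and 9.73 in H4; adjusted p = 5.15e-06). In the other direction the basal keratin KRT17 was at least 2.11-fold lower (4.59 in ES2 and 7.19 in H4) and the mucin MUC1 at least 2.49-fold lower (5.91 in ES2 and 7.43 in H4). Of the 10 keratins compared, 4 were at least 2-fold higher and 1 lower (9.03% and 8.93% of all genes).

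Glial and neural markers were few in both lines. ES2 detected 10 of 38 on both arrays and H4 detected 8, and 21 were detected on no array, including GFAP and nestin (NES). SOX2, a neural stem cell factor, and the Hedgehog target GLI1 were each detected on 1 H4 array and no ES2 array. OLIG2, the oligodendrocyte lineage factor, was detected in H4 only. On the DMSO arrays it had 6.101 in ES2 and 6.47 in H4, near the detection floor and at least 1.28-fold lower in ES2. On the GANT61 arrays it had 5.99 in ES2 and 8.12 in H4. The fit difference over both pairs was -1.25 ± 0.34 SE (limma, adjusted p = 0.0134). The neural adhesion molecule NCAM1 was also detected in H4 only (5.55 in ES2 and 6.84 in H4; adjusted p = 0.000200). CD24, a surface glycoprotein of neural and epithelial progenitors, was 15.1-fold lower in ES2 (6.51 in ES2 and 10.43 in H4), and the astrocyte glutamate transporter SLC1A3 was 2.68-fold lower (7.18 in ES2 and 8.605 in H4). Neuronal tubulin TUBB3 and the ubiquitin hydrolase UCHL1 were detected in both lines. They had 10.89 against 11.73 and 11.93 against 12.67, ES2 against H4, and both were lower in ES2 in the fit (adjusted p = 0.00396 and adjusted p = 0.00471). Other members went the other way. Myelin basic protein (MBP) had 8.903 in ES2 and 4.52 in H4, at least 6.57-fold higher in ES2. The neuronal enolase ENO2 was 3.26-fold higher on the DMSO arrays (8.51 in ES2 and 6.80 in H4) but not called in the fit (adjusted p = 0.656). PDGFRA (7.59 in ES2 and 6.67 in H4) and the neural factor POU3F2 (6.31 in ES2 and 5.64 in H4) were higher in ES2 in the fit. STMN2 and SYT1 were detected on both arrays in ES2 but not in H4, and MAP2 in H4 but not in ES2. Of the 13 compared markers, 2 were at least 2-fold higher and 2 lower on the DMSO arrays (15.4% each, against 9.03% and 8.93% of all genes). On the GANT61 arrays 2 were higher and 5 lower, and 3 were higher and 7 lower in the fit. Their median log2 ratio on the DMSO arrays was -0.75, or -0.36 with genes of 1 line at their bounds.

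Mesenchymal markers were present in both lines, 21 of 35 on both arrays in ES2 and 22 in H4, but the members differed. Vimentin (VIM) had 13.68 in ES2 and 12.78 in H4, higher in ES2 in the fit (adjusted p = 0.00141), and N-cadherin (CDH2) had 10.44 in ES2 and 10.46 in H4. Of the 27 compared, 6 were at least 2-fold higher in ES2 and 8 lower (22.2% and 29.6%, against 9.03% and 8.93% of all genes). The ecto-5′-nucleotidase NT5E (CD73) was at least 15.7-fold higher (10.16 in ES2 and 4.99 in H4), the TGF-beta co-receptor endoglin (ENG) at least 8.78-fold higher (9.32 in ES2 and 5.94 in H4), and the limb mesenchyme factor PRRX1 at least 7.499-fold higher (9.09 in ES2 and 5.99 in H4). Lumican (LUM), a collagen-binding proteoglycan, was at least 54.96-fold lower in ES2 (5.47 in ES2 and 11.89 in H4). Osteoblast cadherin (CDH11), matrix Gla protein (MGP) and the smooth muscle protein transgelin (TAGLN) had 4.96 against 9.12, 5.52 against 9.18 and 5.78 against 9.25, ES2 against H4, and each was at least 8-fold lower in ES2. All 7 were called in the limma fit, with adjusted p-values up to 0.00175.

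Markers of other cell types were few. Of 10 endothelial markers, ES2 detected VE-cadherin (CDH5, 8.16 in ES2 and 4.31 in H4) and the receptor TIE1 (8.44 in ES2 and 4.56 in H4) on both arrays and H4 detected none. Of 19 blood cell markers, both lines detected the lysosomal protein CD68 and H4 also detected the actin bundler LCP1 (6.19 in ES2 and 10.13 in H4), and PTPRC, the pan-leukocyte marker, was detected on no array. Of 8 melanocyte markers, ES2 detected MITF and GPNMB and H4 detected GPNMB.

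Transcription factors of lineage and position differed in both directions. Of 38 compared, 6 were at least 2-fold higher in ES2 and 12 lower (15.8% and 31.6%, against 9.03% and 8.93% of all genes). FOXA2, a factor of endoderm and of glandular epithelium, was at least 15.9-fold higher (10.79 in ES2 and 6.79 in H4), detected on 1 H4 array. The nuclear receptor NR2F2 was 5.37-fold higher (9.58 in ES2 and 7.15 in H4), and the sensory neuron factor POU4F1 at least 4.81-fold higher (8.45 in ES2 and 5.86 in H4). FOXF1, a factor of visceral mesenchyme, was 6.68-fold lower in ES2 (6.24 in ES2 and 8.98 in H4). The 3 compared genes of ID proteins, which block basic helix-loop-helix factors, were lower in ES2, and ID4 was detected on no array. ID1 had 8.77 in ES2 and 11.16 in H4, ID2 5.85 in ES2 and 9.24 in H4 and ID3 8.46 in ES2 and 11.72 in H4, and their fit differences were -2.302 ± 0.25, -2.57 ± 0.35 and -2.68 ± 0.30 SE (limma, adjusted p up to 0.000154). HOX genes, which record axial position, gave few ratios or bounds of 2-fold. Of 23 compared, 22 were detected on both arrays in ES2 and 14 in H4, so part of the values are bounds. On the DMSO arrays 2 were at least 2-fold higher in ES2 (8.7%, against 9.03% of all genes) and none lower. These were HOXC8 (9.01 in ES2 and 6.47 in H4) and HOXA4 (7.39 in ES2 and 5.83 in H4). In the fit 7 were higher and 1 lower, and it called 21.1% of all genes higher and 16.8% lower.

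Cancer-testis antigens, germ-cell genes that tumours often reactivate, held the largest share of lower members among the lineage lists of 5 or more compared genes. Of 16 compared, 8 were at least 2-fold lower in ES2 (background 8.93%) and 1 higher. Their median log2 ratio was -1.47. GAGE1 had a signal of 5.97 in ES2 and 12.42 in H4 and was at least 79.3-fold lower, and MAGEA1 had 5.39 in ES2 and 11.06 in H4 and was at least 30.9-fold lower. PRAME, a repressor of retinoic acid signalling, was the member higher in ES2, at least 12.3-fold higher (9.804 in ES2 and 5.22 in H4; limma adjusted p = 1.41e-07). Counted by family over all compared genes, 14 of 16 GAGE genes, 4 of 4 VCX genes, 5 of 6 SPANX genes and 1 of 3 MAGEA genes were at least 2-fold lower in ES2. GAGE, VCX and SPANX genes are near-identical copies whose probes can share transcripts, so the members of each family are not separate measurements.

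**Figure D2:**
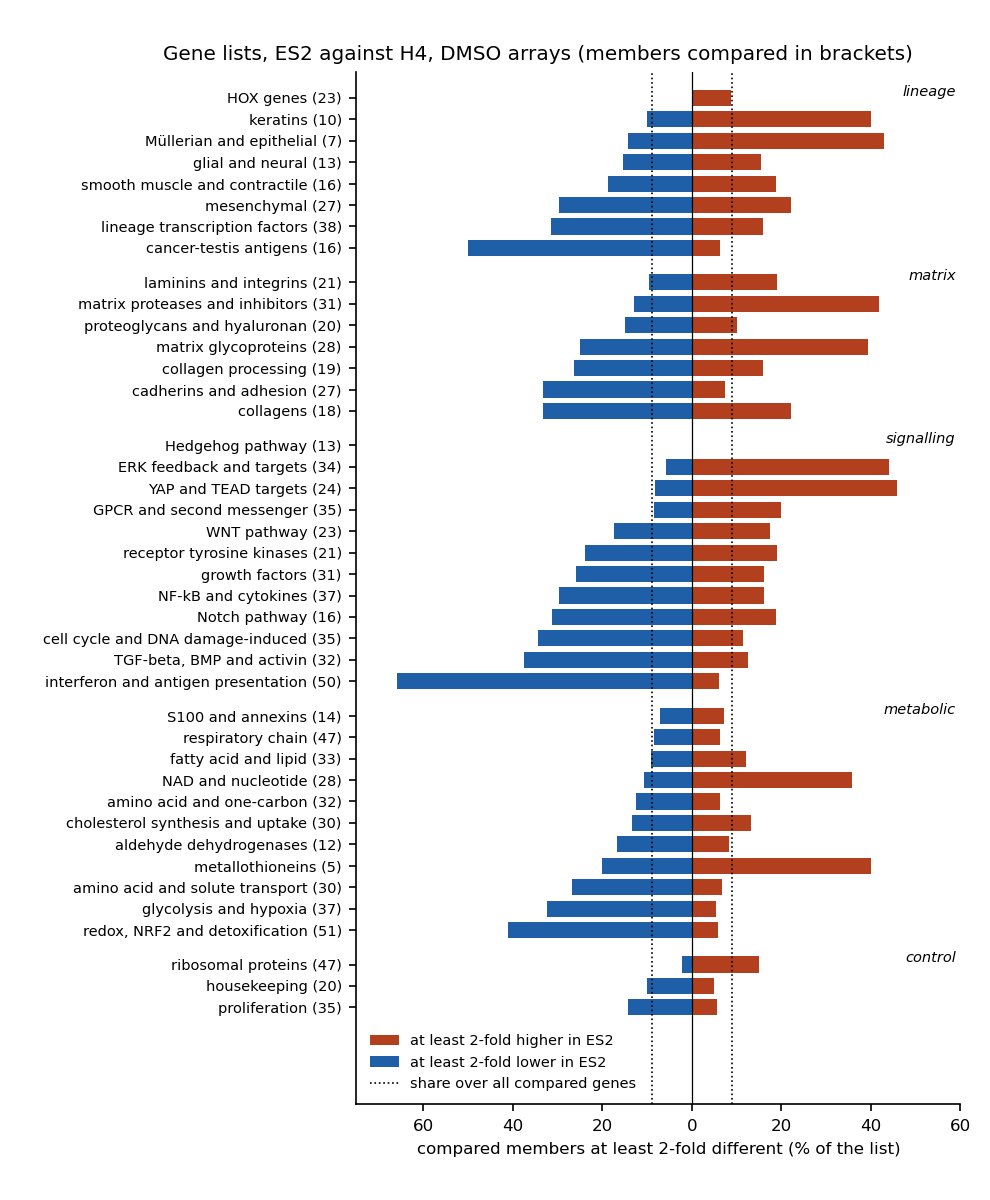
Share of the compared members of each gene list with 5 or more compared genes that were at least 2-fold higher (right) or lower (left) in ES2 than in H4 on the DMSO arrays, in percent, with the number compared in brackets and the shares over all genes, 9.03% and 8.93%, dotted. Among these lists, interferon genes reach furthest to the left at 66.0%, and YAP targets at 45.8% and ERK targets at 44.1% furthest to the right.

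Collagen genes differed chain by chain. The fibrillar collagen V chains named here were lower in ES2, collagen VI chains ran both ways, and COL1A1 was higher. Of 18 collagen genes compared, 4 were at least 2-fold higher and 6 lower (22.2% and 33.3%, against 9.03% and 8.93% of all genes). COL5A1 had 8.495 in ES2 and 11.21 in H4 (6.56-fold lower) and COL5A2 7.18 in ES2 and 10.37 in H4 (9.14-fold lower). COL6A3 was 6.44-fold lower (8.73 in ES2 and 11.42 in H4), whereas its partner chain COL6A2 was 3.47-fold higher (8.89 in ES2 and 7.096 in H4). COL1A1, the main chain of type I collagen, was at least 6.07-fold higher in ES2 (9.23 in ES2 and 6.63 in H4; limma adjusted p = 1.62e-05), and the transmembrane collagen COL13A1 was at least 8.88-fold higher (9.34 in ES2 and 5.52 in H4). H4 detected both on 1 array.

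Enzymes that modify collagen ran both ways, with 3 of 19 at least 2-fold higher and 5 lower (15.8% and 26.3%, against 9.03% and 8.93% of all genes). Lysyl oxidase (LOX), which crosslinks collagen, was 3.75-fold higher (11.84 in ES2 and 9.94 in H4), and the procollagen N-proteinase ADAMTS2 was at least 3.45-fold higher (7.97 in ES2 and 5.68 in H4). The collagen chaperone HSP47 (SERPINH1) was 4.81-fold lower (8.54 in ES2 and 10.81 in H4), and the prolyl hydroxylase subunit P4HA2 was 2.43-fold lower (8.55 in ES2 and 9.83 in H4). All 4 passed the limma fit, with adjusted p-values up to 0.0121.

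Among 28 matrix glycoproteins, 11 were at least 2-fold higher in ES2 and 7 lower (39.3% and 25%, against 9.03% and 8.93% of all genes). In the fit 13 and 8 were called. The matricellular proteins CCN1 and CCN2, both textbook YAP targets, had 12.78 in ES2 and 8.38 in H4 and 12.90 in ES2 and 9.198 in H4, so CCN1 was 21.1-fold higher and CCN2 was 13.02-fold higher. CTHRC1, a secreted collagen-repeat protein, was at least 9.92-fold higher (9.498 in ES2 and 6.06 in H4). The elastic fibre protein EFEMP1 was at least 6.99-fold higher (9.197 in ES2 and 6.39 in H4), with H4 detecting it on 1 array. The TGF-beta-induced adhesion protein TGFBI was 10.5-fold lower in ES2 (10.62 in ES2 and 14.01 in H4; -3.31 ± 0.18 SE, limma adjusted p = 1.51e-07). Osteopontin (SPP1) was at least 7.97-fold lower (5.96 in ES2 and 9.103 in H4) and the microfibril protein MFAP4 at least 8.13-fold lower (5.51 in ES2 and 9.13 in H4).

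Proteoglycans held 2 genes far higher in ES2. Serglycin (SRGN), the core protein of secretory granules, was 32.9-fold higher (12.36 in ES2 and 7.32 in H4), and the small leucine-rich biglycan (BGN) was at least 13.3-fold higher (9.93 in ES2 and 4.93 in H4). Of 20 compared, 3 were at least 2-fold lower (15%, against 8.93% of all genes), among them lumican and the glypican GPC4 (4.75 in ES2 and 7.22 in H4). The hyaluronan receptor CD44 was detected in both lines (11.97 in ES2 and 12.66 in H4) and was lower in ES2 in the fit (limma adjusted p = 0.00193). Laminins and integrins showed 4 of 21 higher and 2 lower (19% and 9.52%, against 9.03% and 8.93% of all genes). ITGB2, the leukocyte integrin beta chain, was 10.7-fold higher (11.02 in ES2 and 7.599 in H4), and the laminin beta chain LAMB3 was at least 7.17-fold higher (9.03 in ES2 and 5.12 in H4). Integrin alpha V (ITGAV) was 3.27-fold lower (7.84 in ES2 and 9.55 in H4) and ITGB8 at least 3.101-fold lower (4.401 in ES2 and 7.74 in H4). Among cadherins and other adhesion genes 2 of 27 were higher and 9 lower (7.41% and 33.3%). Their median log2 ratio was -0.55, but -0.03 with genes of 1 line at their bounds, and 0.19 under median scaling, where the median of all genes was 0.65. Desmoglein 2 (DSG2), a desmosomal cadherin, was 8.83-fold lower (6.99 in ES2 and 10.14 in H4), and the protocadherins PCDHB2 and PCDH18 were 13.98-fold lower (6.36 in ES2 and 10.17 in H4) and 7.27-fold lower (6.28 in ES2 and 9.15 in H4).

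Matrix proteases and their inhibitors held more members higher than lower in ES2 on the DMSO arrays. Of 31 proteases and inhibitors compared, 13 were at least 2-fold higher (41.9%, against 9.03% of all genes) and 4 lower, and 15 and 5 were called in the fit. The median log2 ratio was 0.78, or 0.29 with genes of 1 line at their bounds. On the GANT61 arrays 9 were higher and 6 lower, and the median was 0.08. Interstitial collagenase (MMP1) had a signal of 11.98 in ES2 and 5.53 in H4 and was at least 55.4-fold higher. SERPINB2, the plasminogen activator inhibitor of type 2, had 11.98 in ES2 and 5.87 in H4 and was at least 55.5-fold higher, detected on 1 H4 array. Lower in ES2 were protease nexin 1 (SERPINE2, 9.52 in ES2 and 10.998 in H4), the sheddases ADAM9 (7.74 in ES2 and 9.26 in H4) and ADAM10 (6.71 in ES2 and 8.01 in H4), and the lysosomal protease cathepsin D (CTSD, 7.47 in ES2 and 9.05 in H4).

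AP-1, the dimer of FOS and JUN proteins, is a textbook regulator of several of these proteases. The 250 bases before each gene's start were searched on both strands for TGANTCA. This is a loose form of the AP-1 site with any base (N) in the middle, where the usual form has C or G. RefSeq promoters (GRCh38.p14) matched 22 of the 31 genes. The site was found in 4 of the 8 with a promoter that were at least 2-fold higher in ES2, in 0 of 3 lower and in 1 of 11 others, against 8.06% of 27305 genes with a promoter. The promoters of SERPINB2 (chr18:63887455-63887704, plus strand) and PLAUR, the urokinase receptor (chr19:43670170-43670419, minus strand), are shown with the site in capitals as examples of members higher in ES2. PLAUR had 10.11 in ES2 and 6.998 in H4 and was 8.67-fold higher. The site was also found in SERPINB7 and TFPI2 among the higher members and in SERPINB8 among the others. Apart from PLAUR, the genes with the site encode protease inhibitors, and no protease searched held it.
SERPINB2: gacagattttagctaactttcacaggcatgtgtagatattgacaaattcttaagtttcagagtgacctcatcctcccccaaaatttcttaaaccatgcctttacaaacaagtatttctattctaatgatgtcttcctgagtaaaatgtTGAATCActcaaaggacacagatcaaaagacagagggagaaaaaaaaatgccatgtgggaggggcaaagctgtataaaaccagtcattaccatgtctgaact
PLAUR: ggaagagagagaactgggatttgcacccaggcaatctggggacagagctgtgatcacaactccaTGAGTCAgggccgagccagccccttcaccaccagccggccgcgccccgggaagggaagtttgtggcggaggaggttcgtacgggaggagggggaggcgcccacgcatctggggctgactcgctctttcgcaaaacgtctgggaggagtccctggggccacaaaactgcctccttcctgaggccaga
A match describes the letters of the window and shows no binding. The shares describe this list, which was chosen with earlier results of these data known.

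Hedgehog genes, the pathway that GANT61 targets, gave no ratio or bound of 2-fold between the lines on the DMSO arrays. The ligand receptor Patched normally holds Smoothened (SMO) in check, and active SMO releases GLI factors, which induce GLI1 and PTCH1. Of 13 compared genes of the pathway, 0 were at least 2-fold higher and 0 lower. In the fit 3 were higher and 2 lower, near its shares over all genes of 21.1% and 16.8%. PTCH1 was detected on no array (5.02 in ES2 and 5.195 in H4), and GLI1 had 5.21 in ES2 and 6.19 in H4. SMO was detected in H4 only, with 5.87 in ES2 and 6.85 in H4, and its fit difference was -0.92 ± 0.20 SE (limma adjusted p = 0.00352). GLI2 was detected in ES2 only, with 6.67 in ES2 and 5.43 in H4 (1.08 ± 0.18 SE; adjusted p = 0.000735), as was the ligand-binding inhibitor HHIP (6.83 in ES2 and 5.38 in H4; adjusted p = 0.00202). GLI3 had 6.94 in ES2 and 6.74 in H4 and was not called (adjusted p = 0.709). These signals lie near the detection floor.

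WNT pathway genes ran both ways. The secreted WNT antagonist SFRP1 was 32.9-fold higher (11.69 in ES2 and 6.65 in H4; 5.05 ± 0.26 SE, limma adjusted p = 7.57e-08) and the LRP6 antagonist DKK1 10.96-fold higher (11.51 in ES2 and 8.05 in H4), though DKK1 was not called in the fit (adjusted p = 0.0952) and had 11.34 in ES2 and 11.92 in H4 on the GANT61 arrays. Of 23 pathway genes, 4 were at least 2-fold higher and 4 lower (17.4% each, against 9.03% and 8.93% of all genes). The ligand WNT5A was at least 6.12-fold lower in ES2 (4.75 in ES2 and 8.72 in H4), and the feedback inhibitor NKD2 at least 3.05-fold lower (4.82 in ES2 and 7.72 in H4). In the Notch list, 3 of 16 were higher and 5 lower (18.8% and 31.2%). DLL3 was 3.105-fold higher (9.13 in ES2 and 7.497 in H4), and the glycosyltransferase LFNG was at least 5.71-fold lower (5.89 in ES2 and 8.62 in H4), as was the Delta-like protein DLK2 (4.76 in ES2 and 9.21 in H4, at least 8.600-fold lower). The DNA-binding partner of Notch, RBPJ, was 3.41-fold lower (6.77 in ES2 and 8.54 in H4).

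Genes of TGF-beta, BMP and activin signalling leaned lower, with 12 of 32 at least 2-fold lower in ES2 (37.5%, against 8.93% of all genes) and 4 higher. The receptor TGFBR2 was 4.46-fold higher (10.09 in ES2 and 7.93 in H4), and so was the mediator SMAD3, 3.33-fold higher (9.93 in ES2 and 8.19 in H4). The ID genes above, which BMP signals induce, were lower, and the pseudoreceptor BAMBI was 11.3-fold lower (6.897 in ES2 and 10.40 in H4). The stress-induced ligand GDF15 was at least 34.7-fold lower, with 5.76 in ES2 and 11.23 in H4. On the GANT61 arrays GDF15 had 6.03 in ES2 and 14.54 in H4.

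Receptor and ligand choice also differed. The EGF receptor (EGFR) was 6.78-fold higher in ES2 on its brightest probe (9.87 in ES2 and 7.11 in H4; 1.83 ± 0.38 SE, limma adjusted p = 0.0029). A second EGFR probe, detected on both arrays of both lines, had 7.56 in ES2 and 7.13 in H4, a log2 ratio of 0.43. The EGFR ligand HBEGF was at least 17.6-fold higher (10.33 in ES2 and 5.51 in H4), with H4 detecting it on 1 array. The ErbB3 and ErbB4 ligand NRG1 was at least 4.100-fold higher (8.22 in ES2 and 5.55 in H4) and the AXL ligand GAS6 5.66-fold higher (9.68 in ES2 and 7.18 in H4). AXL itself had 11.52 in ES2 and 10.91 in H4 and MET 8.23 in ES2 and 7.38 in H4. Neither was called in the limma fit (adjusted p = 0.0671 and adjusted p = 0.708). A second AXL probe had 11.505 in ES2 and 10.07 in H4, a log2 ratio of 1.44. H4 was higher in ERBB2 (5.13 in ES2 and 8.02 in H4), FGFR3 (4.83 in ES2 and 8.12 in H4) and PDGFRB (5.603 in ES2 and 8.66 in H4), each detected on no ES2 array. PDGFRA, the receptor that marks glial progenitors, was higher in ES2 in the fit (7.59 in ES2 and 6.67 in H4; adjusted p = 0.00188). The insulin-like growth factor binding proteins IGFBP3 (7.101 in ES2 and 11.01 in H4) and IGFBP5 (5.797 in ES2 and 12.04 in H4) were 15.05-fold lower and at least 61.2-fold lower in ES2. Among 21 receptor tyrosine kinases, 4 were at least 2-fold higher and 5 lower (19% and 23.8%, against 9.03% and 8.93% of all genes). Among 31 growth factors the counts were 5 and 8 (16.1% and 25.8%).

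Targets and feedback inhibitors of ERK, the last kinase of the RAS and RAF cascade, were higher in ES2 on the DMSO arrays. Of 34 compared, 15 were at least 2-fold higher (44.1%, against 9.03% of all genes) and 2 lower. The list's median log2 ratio was 1.12, or 0.82 with genes of 1 line at their bounds. The AP-1 subunit FOSL1 was at least 29.5-fold higher (11.07 in ES2 and 6.16 in H4), and the ERK phosphatase DUSP6 was at least 7.97-fold higher (9.18 in ES2 and 5.75 in H4), each detected on 1 H4 array. The receptor feedback inhibitor SPRY2 was 9.49-fold higher (9.83 in ES2 and 6.59 in H4) and MYC 7.32-fold higher (10.91 in ES2 and 8.04 in H4). Lower in ES2 were the AP-1 subunit JUND (10.71 in ES2 and 12.48 in H4) and the phosphatase DUSP14 (7.08 in ES2 and 8.91 in H4). The gap was narrower on the GANT61 arrays, where the list's median was -0.11 and 5 genes were at least 2-fold higher and 6 lower. There SPRY2 had 9.74 in ES2 and 9.84 in H4, and DUSP6 had 8.97 in ES2 and 8.42 in H4. In both genes the ES2 level was close to that on its DMSO array and the H4 level was higher than on its own.

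Of 24 YAP and TEAD targets, 11 were at least 2-fold higher in ES2 (45.8%, against 9.03% of all genes) and 2 lower on the DMSO arrays. On the GANT61 arrays 7 were higher and 3 lower. The list's median was 0.93 on the DMSO arrays and 0.52 on the GANT61 arrays. CCN1 and CCN2 had GANT61 signals of 12.61 in ES2 and 11.77 in H4 and of 12.53 in ES2 and 12.22 in H4. Their fit differences were 2.62 ± 0.56 and 2.01 ± 0.54 SE (limma, adjusted p = 0.00365 and adjusted p = 0.0124). NT5E and the GTPase-activating protein DLC1 (9.33 in ES2 and 6.17 in H4, at least 8.83-fold higher) were higher in ES2 in both pairs, and the factor TEAD2 (7.78 in ES2 and 10.91 in H4, 8.79-fold lower) and IGFBP3 were lower in both.

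**Figure D3:**
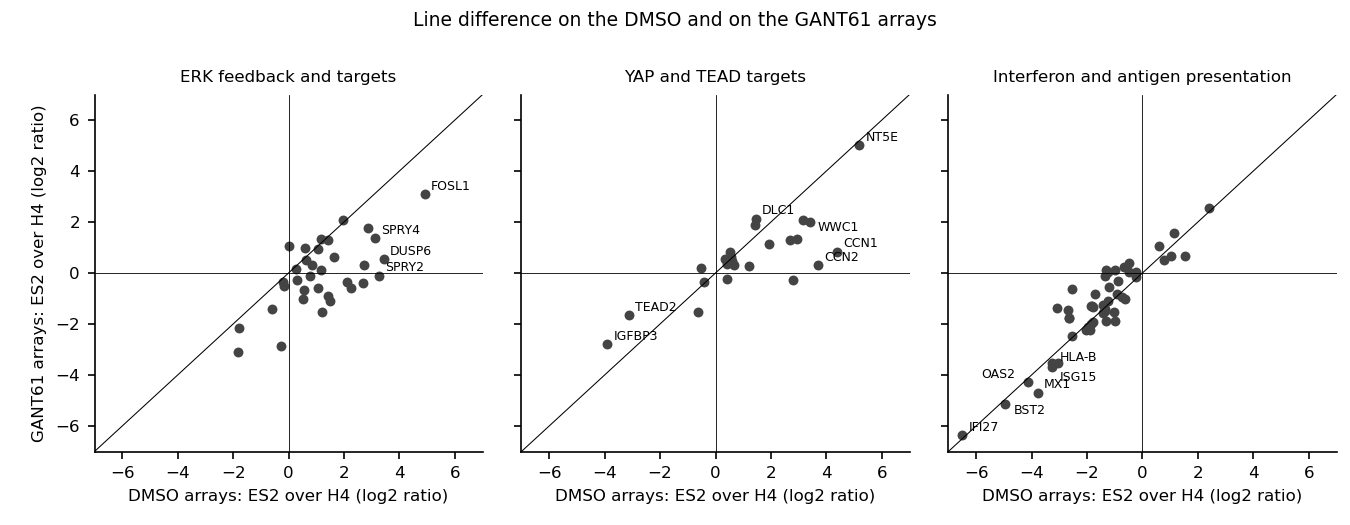
Log2 ratio of ES2 over H4 on the GANT61 arrays (vertical) against the DMSO arrays (horizontal) for the compared members of 3 lists, 1 point per gene, with equality as a line and no bounds applied. ERK and YAP targets lie mostly below the line on the right, with list medians of 1.12 and 0.93 on the DMSO arrays against -0.11 and 0.52 on the GANT61 arrays, while interferon genes lie along it, with medians of -1.36 and -1.30.

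Among receptors coupled to G proteins and their second messengers, 7 of 35 were at least 2-fold higher in ES2 and 3 lower (20.0% and 8.57%, against 9.03% and 8.93% of all genes). The adenosine receptor ADORA2B was 12.2-fold higher (11.05 in ES2 and 7.45 in H4). RGS4, which shortens G protein signals, was at least 16.1-fold higher (10.20 in ES2 and 5.62 in H4). The cyclic GMP phosphodiesterase PDE5A was 14.6-fold lower in ES2 (6.98 in ES2 and 10.85 in H4).

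Inflammatory genes divided by gene. Of 37 NF-kB targets and cytokines, 6 were at least 2-fold higher in ES2 and 11 lower (16.2% and 29.7%, against 9.03% and 8.93% of all genes). Interleukin 1 beta (IL1B) was at least 10.7-fold higher (9.61 in ES2 and 5.28 in H4) and the neutrophil chemokine CXCL5 at least 10.1-fold higher (9.52 in ES2 and 5.73 in H4). The prostaglandin enzymes PTGS2 (6.36 in ES2 and 10.17 in H4) and PTGES (5.84 in ES2 and 8.699 in H4) were 14.1-fold lower and at least 6.02-fold lower. The decoy receptor IL13RA2 was 13.8-fold lower (6.33 in ES2 and 10.12 in H4) and the monocyte chemokine CCL2 at least 4.89-fold lower (5.78 in ES2 and 8.398 in H4). All 6 were called in the limma fit, with adjusted p-values up to 1.05e-05.

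Interferon-induced and antigen presentation genes were the list with the largest share of lower members among those of 5 or more compared genes. Type I interferon acts through a complex that holds STAT2 and IRF9 and binds the interferon-stimulated response element in the promoters of their targets, and many of these genes keep a basal level without added interferon. Of 50 compared, 33 were at least 2-fold lower in ES2 (66.0%, against 8.93% of all genes) and 3 higher, and 34 were lower and 5 higher in the fit. The list's median log2 ratio was -1.36 on the DMSO arrays and -1.30 on the GANT61 arrays. IFI27, a mitochondrial interferon-induced protein, had a signal of 6.77 in ES2 and 13.27 in H4 and was 90.9-fold lower (-6.43 ± 0.24 SE, limma adjusted p = 1.64e-08). Tetherin (BST2), which holds budding virions, was detected on no ES2 array and was at least 19.6-fold lower (5.45 in ES2 and 10.40 in H4). The ubiquitin-like modifier ISG15 had 7.32 in ES2 and 10.60 in H4 (9.696-fold lower), and the class I heavy chain HLA-B had 6.83 in ES2 and 10.10 in H4 (9.68-fold lower). The class I light chain B2M was lower as well (10.87 in ES2 and 12.29 in H4; adjusted p = 0.000377). Against this direction, HLA-E had 10.58 in ES2 and 9.79 in H4, and the class II chains HLA-DPA1 (7.94 in ES2 and 5.55 in H4, at least 3.38-fold higher) and HLA-DRA (7.73 in ES2 and 6.58 in H4, at least 2.21-fold higher) and the exonuclease ISG20 (9.06 in ES2 and 7.51 in H4, 2.93-fold higher) were higher in ES2. HLA genes are polymorphic and similar to each other, so a probe's signal can depend on the line's allele.

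The 250 bases before the start of these genes were searched on both strands for the core of the response element, read as GAAA, any 2 bases and GAAA again. RefSeq promoters (GRCh38.p14) matched 39 of the 50 compared genes. The core was found in 17 of the 28 with a promoter that were at least 2-fold lower in ES2, in 1 of 2 higher and in 3 of 9 others, against 3.71% of 27305 genes. A gene counts where any of its windows holds the core. The windows of ISG15 (chr1:1013247-1013496, plus strand), IFI27 (chr14:94110486-94110735, plus strand), BST2 (chr19:17405631-17405880, minus strand) and IFIT1 (chr10:89392373-89392622, plus strand) are shown because they hold it and belong to genes at least 2-fold lower in ES2. IFIT1, an interferon-induced protein that binds viral RNA, had 6.82 in ES2 and 9.497 in H4. Capitals mark the core on either strand.
ISG15: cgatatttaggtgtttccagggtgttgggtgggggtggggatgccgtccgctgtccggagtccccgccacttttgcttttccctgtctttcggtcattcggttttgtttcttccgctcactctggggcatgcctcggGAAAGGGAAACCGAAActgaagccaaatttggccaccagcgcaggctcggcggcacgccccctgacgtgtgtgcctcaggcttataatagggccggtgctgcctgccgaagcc
IFI27: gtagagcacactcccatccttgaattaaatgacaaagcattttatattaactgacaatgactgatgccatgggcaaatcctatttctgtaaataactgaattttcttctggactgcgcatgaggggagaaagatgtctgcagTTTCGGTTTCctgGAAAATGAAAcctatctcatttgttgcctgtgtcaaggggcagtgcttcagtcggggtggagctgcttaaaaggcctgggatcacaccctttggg
BST2: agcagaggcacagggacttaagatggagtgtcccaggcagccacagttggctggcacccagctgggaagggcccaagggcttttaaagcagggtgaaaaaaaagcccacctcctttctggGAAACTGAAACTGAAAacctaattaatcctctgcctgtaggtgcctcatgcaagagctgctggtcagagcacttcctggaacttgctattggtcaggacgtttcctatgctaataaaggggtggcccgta
IFIT1: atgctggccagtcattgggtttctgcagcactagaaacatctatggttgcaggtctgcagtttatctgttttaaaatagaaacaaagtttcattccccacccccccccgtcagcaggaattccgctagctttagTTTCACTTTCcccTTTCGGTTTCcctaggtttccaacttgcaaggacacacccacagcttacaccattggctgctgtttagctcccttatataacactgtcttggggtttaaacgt
Each of these 4 windows holds 2 matches, which overlap in ISG15 and BST2. The list was chosen for its response to interferon, so the share of members with the core describes the list.

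**Figure D4:**
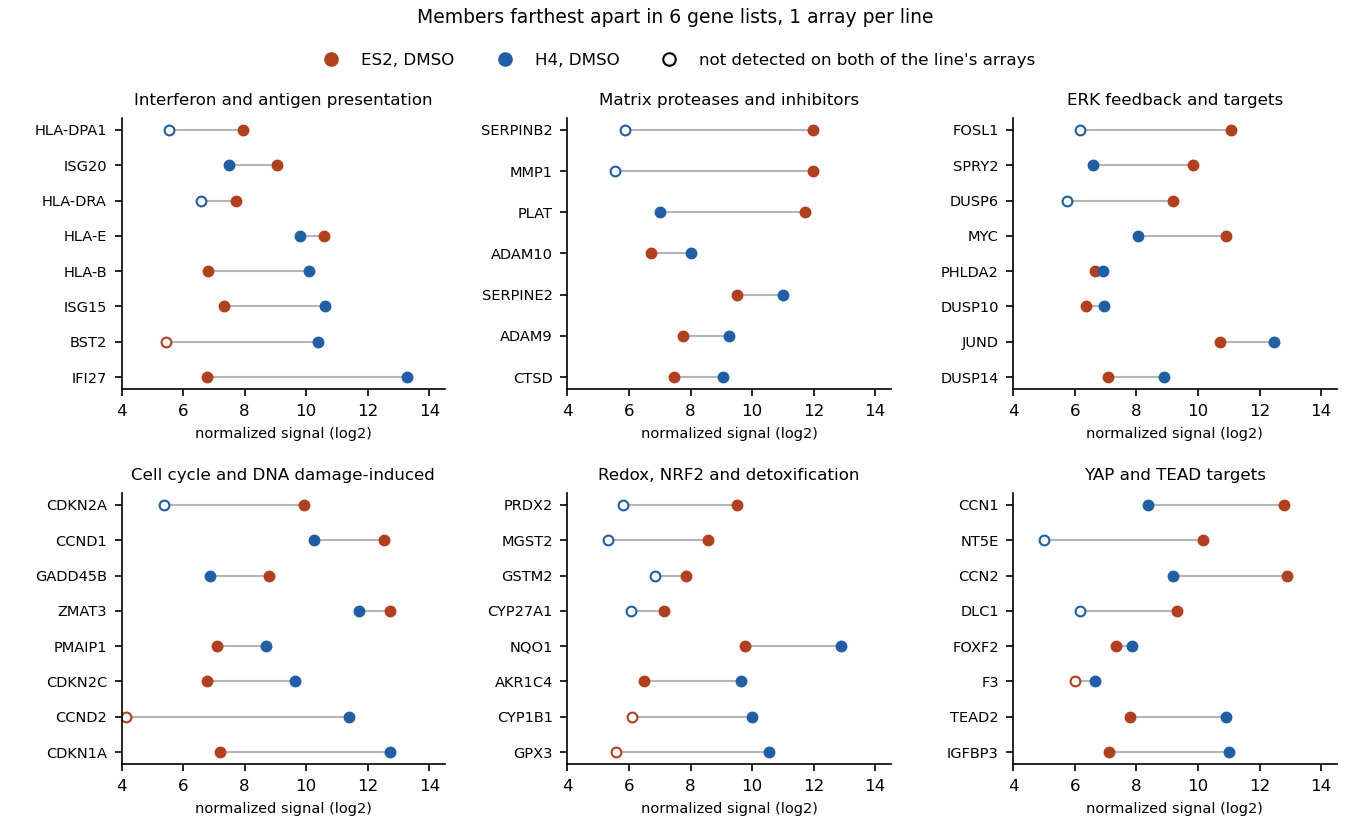
Normalized log2 signal in ES2 and H4 on the DMSO arrays, 1 array each, for up to 4 of the members farthest apart in each direction of 6 gene lists, with open circles where a line did not detect the gene on both of its arrays. IFI27 at 6.77 in ES2 and 13.27 in H4 and CDKN1A at 7.19 in ES2 and 12.74 in H4 are the widest gaps to the H4 side among genes detected in both lines.

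A list of cell cycle regulators and DNA damage-induced genes held more members lower than higher in ES2. Of its 35 compared members, 4 were at least 2-fold higher in ES2 and 12 lower (11.4% and 34.3%, against 9.03% and 8.93% of all genes), with 7 and 17 called in the fit. Proliferation genes were counted in a separate list, given below. CDKN1A (p21), a CDK inhibitor induced by DNA damage, had 7.19 in ES2 and 12.74 in H4 and was 46.9-fold lower in ES2 (-6.11 ± 0.29 SE, limma adjusted p = 4.56e-08). Cyclin D2 (CCND2) was at least 38.6-fold lower (4.15 in ES2 and 11.38 in H4; adjusted p = 1.86e-08), whereas cyclin D1 (CCND1) was 4.76-fold higher on the DMSO arrays (12.52 in ES2 and 10.26 in H4) and not called in the fit (adjusted p = 0.168). The apoptosis gene PMAIP1 (NOXA) was 3.005-fold lower (7.095 in ES2 and 8.68 in H4).

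CDKN2A, which encodes the CDK inhibitor p16 and the protein ARF on chromosome 9, ran the other way. It had 9.94 in ES2 and 5.38 in H4, was at least 13.5-fold higher in ES2 and was detected on no H4 array (limma adjusted p = 2.13e-07). Several genes near it were also higher in ES2 or detected only there. MTAP, the methionine salvage enzyme beside it, had 9.96 in ES2 and 6.33 in H4 and was detected on both H4 arrays, 12.4-fold higher. KLHL9, farther out on that side, had 9.597 in ES2 and an undetected 4.67 in H4, with 5 interferon alpha genes between it and IFNE on no array of either line. IFNE (6.35 in ES2 and 5.31 in H4), CDKN2B (6.82 in ES2 and 5.86 in H4), DMRTA1 (6.34 in ES2 and 5.36 in H4) and CAAP1 (6.35 in ES2 and 5.86 in H4) were detected on both ES2 arrays and no H4 array. The ES2 signals of IFNE, DMRTA1 and CAAP1 lay close to the lowest detected signals, 6.11 in ES2 and 6.19 in H4. Of all 11819 compared genes, 2316 were detected on both arrays of ES2 only, 1001 of them also on 1 H4 array. Between DMRTA1 and CAAP1, TUSC1 was detected on both H4 arrays and no ES2 array, and the next genes, PLAA and IFT74, were detected in both lines. A signal below detection gives no copy number, and none was measured here.

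**Figure D5:**
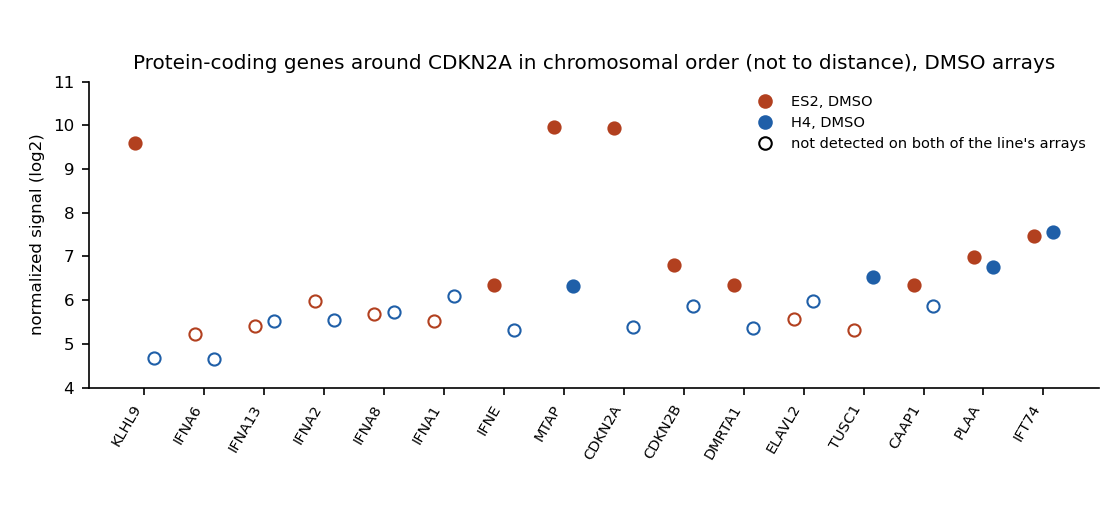
Normalized log2 signal on the DMSO arrays of protein-coding genes around CDKN2A in their order on chromosome 9, evenly spaced, with ES2 left of H4 and open circles where a line did not detect the gene on both of its arrays. KLHL9, IFNE, CDKN2A, CDKN2B, DMRTA1 and CAAP1 were detected in ES2 and not in H4, whereas PLAA and IFT74 were detected in both.

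Among the metabolic lists with over 20 compared genes, detoxification held the largest share of members lower in ES2 and nucleotide metabolism the largest share of higher ones. NRF2 is the factor that induces glutathione and quinone-reducing enzymes when its inhibitor KEAP1 is modified. Of 51 redox, NRF2 and detoxification genes, 21 were at least 2-fold lower in ES2 (41.2%, against 8.93% of all genes) and 3 higher, and 23 and 6 were called in the fit. The median log2 ratio was -0.79, which turned to 0.08 under median scaling, where the median of all genes was 0.65. The quinone reductase NQO1 was 8.798-fold lower (9.76 in ES2 and 12.90 in H4; adjusted p = 4.15e-05 in the limma fit), and the plasma glutathione peroxidase GPX3 was at least 21.9-fold lower (5.58 in ES2 and 10.56 in H4). CYP1B1, a target of the aryl hydrocarbon receptor, was at least 14.7-fold lower (6.09 in ES2 and 9.98 in H4), and the aldo-keto reductase AKR1C4, whose probe can share transcripts with its near-identical relatives, was 8.99-fold lower (6.48 in ES2 and 9.65 in H4). The cystine transporter SLC7A11 had 5.61 in ES2 and 9.39 in H4 and was at least 9.75-fold lower. In the other direction peroxiredoxin 2 (PRDX2) was at least 10.01-fold higher (9.51 in ES2 and 5.81 in H4) and the microsomal glutathione transferase MGST2 at least 5.26-fold higher (8.58 in ES2 and 5.33 in H4). The antioxidant response element core TGACNNNGC was found in the promoters of 2 of 16 members lower in ES2, 0 of 2 higher and 8 of 22 others, against 13.2% of all genes.

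Genes of NAD and nucleotide metabolism leaned higher, with 10 of 28 at least 2-fold higher in ES2 (35.7%, against 9.03%) and 3 lower. NAD synthetase (NADSYN1) was 6.48-fold higher (9.71 in ES2 and 7.01 in H4), and cytidine deaminase (CDA) was at least 4.27-fold higher (8.28 in ES2 and 5.37 in H4). NNMT, which methylates nicotinamide and so removes it from NAD salvage, was 18.3-fold lower in ES2 (7.55 in ES2 and 11.74 in H4; -3.54 ± 0.32 SE, limma adjusted p = 6.92e-06). Kynureninase (KYNU), an enzyme of tryptophan breakdown toward NAD, was at least 37.7-fold lower (5.95 in ES2 and 11.35 in H4).

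Glycolysis and hypoxia genes were lower in ES2 in part. Of 37 compared, 12 were at least 2-fold lower and 2 higher (32.4% and 5.41%, against 8.93% and 9.03% of all genes). The median of -0.30 became 0.51 under median scaling, where the median of all genes was 0.65, and 0.04 on the authors' scale, where it was 0.03. The lactate exporter SLC16A3 was 5.03-fold lower (7.500 in ES2 and 9.83 in H4) and the hypoxia-induced peptide adrenomedullin (ADM) at least 32.4-fold lower (6.098 in ES2 and 11.13 in H4). The platelet phosphofructokinase PFKP was 5.15-fold higher (12.29 in ES2 and 9.93 in H4). Lactate dehydrogenase A (LDHA) had 13.15 in ES2 and 13.90 in H4 and was lower in the fit (adjusted p = 0.00125), while LDHB had 11.82 in ES2 and 11.44 in H4 and was not called (adjusted p = 0.0968). Respiratory chain genes were near the background, with 3 of 47 higher and 4 lower.

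The list of cholesterol synthesis and uptake genes was even on the DMSO arrays, with 4 of 30 genes higher and 4 lower (13.3% each, against 9.03% and 8.93% of all genes). These counts include transport genes, the exporter ABCA1 and the uptake receptor SCARB1 on the higher side and the endosomal exporter NPC2 on the lower. DHCR7, the last step to cholesterol, was 13.5-fold higher (11.05 in ES2 and 7.303 in H4), whereas the desaturase SC5D just before it was 3.21-fold lower (7.29 in ES2 and 8.98 in H4). On the GANT61 arrays 2 were higher and 15 lower. HMGCS1, an early step of cholesterol synthesis, had 8.15 in ES2 and 9.26 in H4 on the DMSO arrays. On the GANT61 arrays it had 8.49 in ES2 and 11.10 in H4. The fatty acid carrier FABP5 was at least 17.6-fold higher (10.33 in ES2 and 5.63 in H4; limma adjusted p = 1.43e-07), and of 33 fatty acid and lipid genes 4 were higher and 3 lower (12.1% and 9.09%), shares near those of all genes.

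Of 30 amino acid and solute transporters, 8 were at least 2-fold lower in ES2 and 2 higher (26.7% and 6.67%, against 8.93% and 9.03% of all genes), and the leucine transporter SLC7A5 was 5.64-fold lower (9.94 in ES2 and 12.43 in H4). Asparagine synthetase (ASNS) was 3.77-fold lower (10.53 in ES2 and 12.44 in H4). The polyamine enzymes ornithine decarboxylase (ODC1, 11.79 in ES2 and 9.87 in H4) and spermidine synthase (SRM, 9.999 in ES2 and 8.65 in H4) were 3.78-fold higher and 2.55-fold higher in ES2. Retinaldehyde dehydrogenase ALDH1A3 was 11.5-fold higher (12.32 in ES2 and 8.79 in H4), and ALDH2 was at least 2.41-fold lower (4.81 in ES2 and 7.38 in H4). The metal-binding protein MT1E was detected in ES2 only and was at least 84.8-fold higher (12.59 in ES2 and 5.65 in H4; adjusted p = 1.64e-08 in limma), while its relative MT1X was 2.76-fold lower (10.41 in ES2 and 11.87 in H4). Metallothionein genes are near-identical, and their probes can share transcripts. S100A16 was 9.17-fold higher (10.09 in ES2 and 6.89 in H4) and S100A4 at least 7.204-fold lower (5.83 in ES2 and 8.96 in H4).

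In the control lists, 15% of the housekeeping, 17% of the ribosomal protein and 20% of the proliferation genes were at least 2-fold different in either direction, against 18.0% of all genes. Of 20 housekeeping genes, 1 was at least 2-fold higher, the polymerase subunit POLR2A (10.27 in ES2 and 9.104 in H4), and 2 lower, B2M and the transferrin receptor TFRC (9.36 in ES2 and 12.09 in H4). Of 47 ribosomal protein genes, 7 were higher and 1 lower (14.9% and 2.13%, against 9.03% and 8.93% of all genes). In the fit 18 were higher and 1 lower. Of 35 proliferation genes, 2 were higher and 5 lower (5.71% and 14.3%). On the GANT61 arrays 14 proliferation genes were at least 2-fold higher in ES2 and 2 lower, against 1176 higher and 1224 lower among all 11819 genes. Survivin (BIRC5) had 7.99 in ES2 and 10.27 in H4 on the DMSO arrays and Aurora kinase B (AURKB) 10.85 in ES2 and 9.001 in H4.

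The line difference was also read on the GANT61 arrays, which share no array with the DMSO pair but share its normalization. Of the 1067 genes higher in ES2, 671 (62.9%) were at least 2-fold higher there too and 7 at least 2-fold lower. Of the 1055 lower, 719 (68.2%) were at least 2-fold lower and 2 at least 2-fold higher. Genes detected on both arrays of only 1 line, 367 of the higher and 285 of the lower, could not count as reversed, because their bounds stop at equality. Agreement between probes gives a second measure of error. For 1825 genes with a second detected probe, the error of 1 probe's log2 ratio was put at 0.40. This is the SD of the difference between the 2 probes' ratios, divided by the square root of 2. Of 314 genes at least 2-fold different, the second probe had the same direction for 295 and passed 2-fold for 179.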

How the data were processed

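Expression was measured in ES2 and H4 cells with DMSO or GANT61, 1 array each, and samples were grouped by line and treatment from their titles. The authors' deposited value table holds linear intensity per probe, quantile-normalized within each line as its sorted values show, on 47229 probes. The array software is not given in the sources used here. A second deposited table holds detection p-values and 4 signal columns. The signal columns name no treatment and were not used, and each detection p-value served only as a count of a line's arrays at p under 0.01.

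With limma 3.58.1 in R 4.3.3, intensities received a normexp correction (offset 16), then quantile normalization across all 4 arrays, then log2. The offset shrinks differences between dim probes, and a shift common to all genes is lost in the quantile step. Probe names were updated through RefSeq symbols: 27035 probes had a current symbol, 4626 a synonym and 3485 a gene number, 10 were renamed by hand from an old symbol, 8749 kept the file's name, 3270 had none and 54 had become dates. A gene is its brightest probe over the 4 arrays. The line difference was fitted with lmFit and eBayes with a trend, treatment as a block and Benjamini-Hochberg adjustment over 11819 genes. The fit was tested on simulated data, and pandas 2.3.3 in Python 3.11.15 did the counting.

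The comparison and its 44 gene lists were chosen with earlier results of these data known. Genes were named by rule: the 10 largest ratios each way among genes detected in both lines, the 8 largest bounds each way among genes detected on no array of the other line, up to 4 members farthest from 0 each way per list, and a fixed set of markers. PLAUR and IFIT1 were added for their promoters, and the genes around CDKN2A for their position, after their values were seen. Genes of the Y chromosome and XIST were left out of the named genes. Some genes that the rule names are not reported here.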

Additional observations from a re-analysis of the deposited data

Results flagged for a closer look

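For 4 named genes the line difference was at least 2-fold on the DMSO arrays and at least 2-fold the other way on the GANT61 arrays. CXCL8, a neutrophil chemokine, had a log2 ratio of ES2 over H4 of 1.23 on the DMSO arrays and -1.13 on the GANT61 arrays. The neuronal enolase ENO2 had 1.71 and -1.09 in the same order, and the activin inhibitor FST had 1.49 and -2.13. The mitotic kinesin KIF20A had the opposite signs, with -1.32 on the DMSO arrays and 1.65 on the GANT61 arrays. With 1 array per line and treatment the difference between these ratios was not tested.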

How the results depend on the processing

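No paired analysis was possible because each line and treatment has 1 array, beyond the limma fit itself, which pairs the lines within each treatment and without this block called 2397 genes higher in ES2 and 1928 lower. On the DMSO arrays, 1067 genes were at least 2-fold higher in ES2 and 1055 lower, and the counts were 3490 and 435 under median scaling without quantile normalization, 700 and 770 for genes detected on both arrays of both lines, 2287 and 2190 at 1.5-fold, and 243 and 269 at 4-fold. Under the offset of 50, no background correction, quantile normalization of the DMSO arrays alone, the authors' scale, the mean of detected probes, the brightest probe of the DMSO arrays, detection p under 0.05, no detection filter and the GANT61 arrays, both counts stayed within 1.5 times. The lower count among genes detected in both lines follows from leaving out genes detected in 1 line, and the cause of the change under median scaling was not tested. In the limma fit, 6557 genes were higher and 944 lower under median scaling, against 2489 and 1980, and the other alternatives stayed within 1.5 times. The fit on quantile normalization of the DMSO arrays alone was not run, because it holds no GANT61 array.

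Of 335 named genes, 249 were at least 2-fold different. None of these turned direction outside the GANT61 arrays, and 189 passed 2-fold under every alternative. On the GANT61 arrays 16 of these 249 had the opposite sign, with log2 ratios of -0.57 for CCND1, 0.11 for CDKN2C, 0.0879 for CENPF, -1.13 for CXCL8, -0.58 for DKK1, -1.09 for ENO2, -0.0390 for EPHA2, -0.48 for FASN, -0.0855 for FOXD1, -2.13 for FST, 1.65 for KIF20A, 0.51 for LEF1, -0.17 for MT1A, -0.10 for SPRY2, 0.18 for TK1 and -0.22 for VEGFC, and the cause was not tested. Signals near the detection floor limit the ratios of dim genes to bounds.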

Other observations

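Chromosomes were read on the DMSO arrays for the autosomes only, leaving out X and Y. Among them the median log2 ratio of ES2 over H4 ranged from -0.28 on chromosome 7, with 547 genes compared, to 0.32 on chromosome 20, with 284. On chromosome 7, 5.48% of the genes were at least 2-fold higher in ES2 and 16.8% lower. Chromosome 4 had 7.02% higher and 15.3% lower, and chromosome 18 had 6.62% and 15.2%. Chromosome 10 had 14.9% higher and 6.64% lower, chromosome 8 had 14.8% and 8.91%, and chromosome 20 had 13% and 4.23%. Over all genes the shares were 9.03% and 8.93%. These values describe 1 array of each line, and chromosome copy number was not measured here.

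Of 5 genes of the clustered protocadherin beta family compared, 3 were at least 2-fold lower in ES2 and 0 higher. Of 5 HLA class I genes 3 were lower and 0 higher, and over all genes the shares were 8.93% and 9.03%. The members of each family are similar in sequence, and their probes can share transcripts.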
